A study of Homo sapiens with 18 samples.

Results

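The Ser5 form of RNA polymerase II (Pol II) was followed in rhabdomyosarcoma cells after 4 h of degradation of the fusion transcription factor PAX3-FOXO1. The comparison was chosen by its treatment and antibody. It set the 2 libraries made at 4 h against the 2 made from DMSO controls, which are 4 of the 18 samples of the series, and took in all 12123 regions that were counted. The cells were Rh30, an established alveolar rhabdomyosarcoma line, in which PAX3-FOXO1 carries an FKBP tag. The treated cells received 500 nM dTAG47, a small molecule that directs tagged proteins to degradation, for 4 h, and the controls received DMSO. All groups, the controls included, carried the tagged fusion, so no untagged cells that received dTAG47 enter the comparison and effects of the compound itself cannot be told apart from loss of the fusion. The 2 Ser5 libraries made at 2 h of the same treatment entered the fit for the estimate of the spread, and their values are given beside the 4 h values. The labels leave out whether the tagged cells are 1 clone.

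Pol II is phosphorylated on serine 5 of the repeats of its C-terminal domain when it leaves the initiation complex, and the Ser5 form is found mostly near transcription start sites, where the enzyme often pauses before elongation. PAX3-FOXO1 joins the DNA-binding domains of PAX3 to the activation domain of FOXO1 and is known to bind enhancers and to keep muscle lineage genes on in these tumours. A fall in Ser5 signal at a start site after the fusion is removed means that less Ser5 Pol II was recovered there, without telling fewer initiation events from faster release. The regions are given here by chromosome and position in hg19, the build of the deposited table. No annotation of hg19 was used here, and positions were not carried over from a later build. The regions were therefore tied to no gene, their place at start sites was not examined, and the markers of the cell line were not checked. They are grouped below by signal, by neighbours and by the behaviour of the libraries.

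The libraries held between 962251 and 1792013 counts in these regions, and the shallowest was 4 h library B, with a median of 60 counts per region against 120 in DMSO library A. Counting noise alone did not account for the spread within a group, since chi-square divided by its degrees of freedom was 2.33 in DMSO and 2.26 at 4 h. The share of reads in the 3 regions with most counts was 1.77% in DMSO library A, 2.61% in DMSO library B, 2.61% in 4 h library A and 4.17% in 4 h library B, and so moved both with the treatment and with the letter. Signal is given below as TMM-scaled CPM, which are read counts divided by library size after scaling by the trimmed mean of M-values (CPM). The scaling sets the typical region to no change, and a change shared by all regions would not be seen.

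Ser5 Pol II fell at 59 regions after 4 h, or 0.487% of the regions tested, and rose at 184, or 1.52% (quasi-likelihood test of edgeR, with an adjusted p under 0.05 over all regions). Falls of at least 2-fold were found at 14 regions and rises of that size at 26. The middle of the distribution hardly moved, with a median log2 fold change of -0.0083 over all regions and 5th and 95th percentiles of -0.40 and 0.44. The smallest fall that was called had a log2 fold change of -0.53 and the smallest rise 0.51, so changes below these sizes were not called at this depth and number of libraries. Separate cultures are not named in the labels, so the p-values cover only the spread between 2 libraries of each group, and this spread may be technical. Rises were 75.7% of the calls with TMM scaling and 59.1% when libraries were scaled by total count, with 83 falls and 120 rises. DESeq2 called 4 falls and 52 rises. A fit with the share of the 3 strongest regions as a covariate called 109 falls and 191 rises. That fit kept only 38 of the 59 falls and 101 of the 184 rises, so a count does not tell whether the same regions stayed called. Single libraries moved the counts too, to 27 falls without 4 h library B, and to 89, 314 and 93 rises without DMSO library A, DMSO library B and 4 h library B.

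The regions that fell were more often of high than of low signal. Among the 25% of regions with the lowest DMSO signal, up to 44.2 CPM, 8 fell and 32 rose, and among the 25% with the highest, from 92.7 CPM upwards, 28 fell and 83 rose. The precision differed between these groups of regions as well, since the log2 fold changes had a median standard error of 0.25 in the lowest and 0.15 in the highest. The median DMSO signal was 88.6 CPM at the falls and 85.8 CPM at the rises, against 63.8 CPM over all regions. No fall lay above 335 CPM in DMSO, whereas the rises reached 1099 CPM. That strongest rise, on chromosome 18, belongs to the group set apart below by its library ratios.

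**Figure D1:**
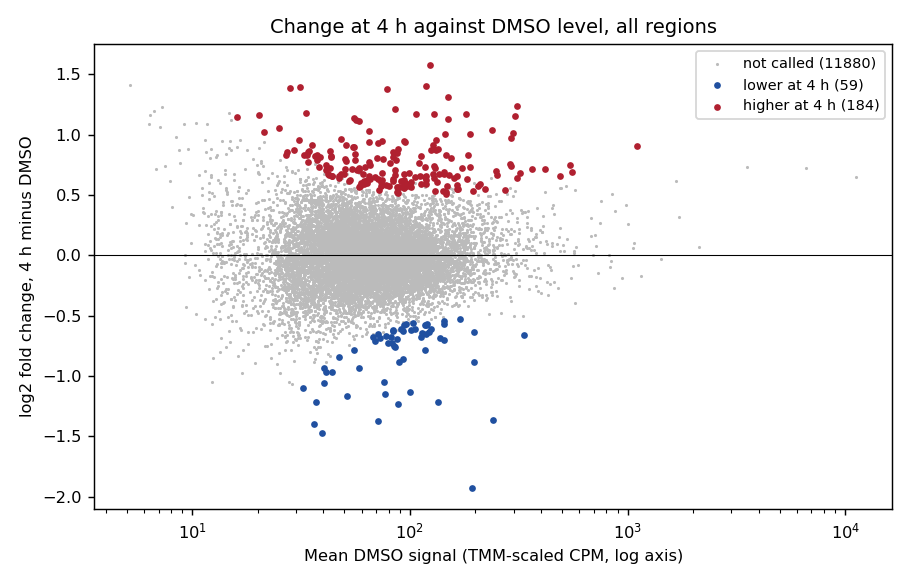
The log2 fold change of each of the 12123 regions at 4 h is plotted against its mean DMSO signal (TMM-scaled CPM, log axis), with called falls in blue and called rises in red. The lowest blue point, near 193 CPM with a log2 fold change of -1.93, stands apart from the other 58 falls.

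The deepest fall lay on chromosome 16 at 1487379 to 1487779, where DMSO libraries A and B held 209 and 177 CPM and the 4 h libraries 47.9 and 55.4 CPM. The groups were far apart, and the 2 h libraries, with 74.7 and 70.7 CPM, lay between them. The log2 fold change at 4 h was -1.93 (95% confidence interval -2.25 to -1.61, edgeR adjusted p = 6.45e-12). In the 14 other settings that were run, it stayed between -2.02 and -1.80, with a highest adjusted p of 2.64e-10 (edgeR). Among these settings, the fit without a filter only repeated the main fit, since the filter removed no region. The 7 other regions measured within 100 kb of this fall had log2 fold changes from -0.50 to 0.05, and none of them was called.

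A stretch of chromosome 9 held 4 of the 11 deepest falls. At 133355675 to 133356075 the signal was 117 and 151 CPM in DMSO and 58.0 and 56.5 CPM at 4 h. At 133377115 to 133377515 it was 102 and 97.2 CPM in DMSO and 44.1 and 47.9 CPM at 4 h. The pair lies within 21.8 kb, and in both regions the signal at 4 h was less than that of either DMSO library by a wide margin.

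Farther along the chromosome, the region at 133536057 to 133536457 had the highest DMSO signal of the 20 largest falls, 224 and 259 CPM, and dropped to 97.7 and 88.4 CPM. Its neighbour at 133558924 to 133559324 went from 75.1 and 102 CPM to 39.1 and 34.1 CPM. The 4 falls had log2 fold changes of -1.21, -1.13, -1.36 and -1.24 in the order of their positions (edgeR adjusted p = 1.49e-06, 1.05e-05, 2.75e-08 and 2.77e-05). Each kept its call in every alternative that gave an adjusted p. DESeq2 gave none at 133377115 and 133558924, so it called neither of these. They differed little among themselves, since their 95% intervals overlap. Between the pairs, the region at 133454593 to 133454993 held 125 and 105 CPM in DMSO and 103 and 105 CPM at 4 h, and beyond the last fall the region at 133588269 held 84.2 and 79.4 CPM in DMSO and 78.8 and 71.4 CPM at 4 h. Their log2 fold changes were -0.15 (95% interval -0.44 to 0.15) and -0.11 (-0.42 to 0.20), and these intervals do not reach those of the 4 falls. The stretch was drawn from its first to its last called fall, so the region beyond it could not be a called fall. It was known from earlier results of these data and was not an independent find.

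**Figure D2:**
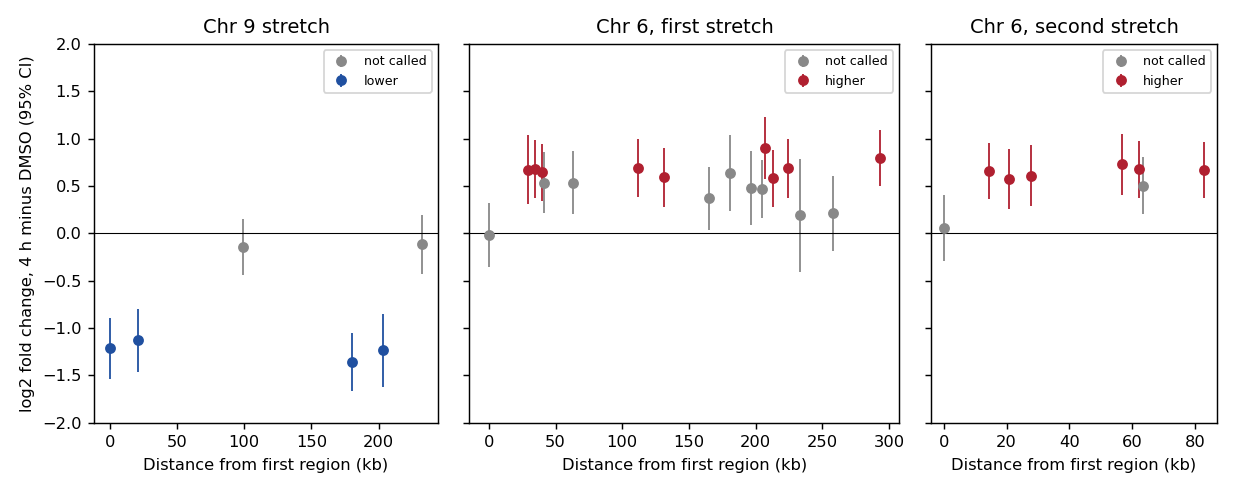
Log2 fold changes at 4 h with 95% confidence intervals are plotted against the distance in kb from the first region shown, for the chromosome 9 stretch and 2 stretches of chromosome 6, each with the measured regions up to 50 kb beyond its ends. On chromosome 9 the 4 called falls lie between -1.36 and -1.13 with a region that was not called between the pairs, while on chromosome 6 the regions inside the stretches lie above 0.

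Of the other large falls, 5 were called in every alternative that gave an adjusted p. DESeq2 gave one only at the region of chromosome 21, and so did not call the rest of the 5. On chromosome 17 at 6458833 to 6459233 the signal went from 72.9 and 69.8 CPM to 31.5 and 21.3 CPM (log2 fold change -1.37, edgeR adjusted p = 2.77e-05). On chromosome 19 at 49175545 to 49175945 it went from 67.5 and 85.5 CPM to 38.4 and 27.7 CPM (-1.14, adjusted p = 0.000170). Both were at less than 50% of their DMSO mean at 4 h, but the 2 h libraries stood differently, with 25.1 and 36.5 CPM at the first and 51.7 and 63.9 CPM at the second.

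The region on chromosome 11 at 20184907 to 20185307 had 65.9 and 86.2 CPM in DMSO and 38.4 and 33.0 CPM at 4 h (-1.05, edgeR adjusted p = 0.000419). The region on chromosome 21 at 28338383 to 28338783 was among the strongest, with 186 and 209 CPM in DMSO and 111 and 102 CPM at 4 h (-0.88, adjusted p = 9.93e-05). The region on chromosome 13 at 79177385 to 79177785 held 79.4 and 97.9 CPM in DMSO and 50.4 and 43.7 CPM at 4 h (-0.88, adjusted p = 0.00133). In each of these 3 regions both 4 h libraries lay below both DMSO libraries, which was part of the rule that named the 20 falls and held for 20.6% of all regions.

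The remaining 10 of the 20 largest falls were regions of low signal, with DMSO means from 32.4 to 58.0 CPM, and each lost its call in at least 1 alternative. The 10 that kept it wherever an adjusted p was given had DMSO means from 71.3 to 241 CPM. Among the 10 that lost a call, log2 fold changes were below -1 at 209719978 of chromosome 1 (-1.47) and 138666190 of chromosome 7 (-1.39). The same held at 59730363 and 58766925 of chromosome 15 (-1.22 and -1.06), 30263575 of chromosome 12 (-1.16) and 66885788 of chromosome 11 (-1.10). The other 4 were at 114260949 of chromosome 2 (-0.97), 104852098 of chromosome 12 (-0.97), 66535232 of chromosome 4 (-0.93) and 62065539 of chromosome 17 (-0.93). The fold changes kept their sign in each alternative. The call at 66535232 was lost in 5 settings, more than at any other named fall, although its libraries were close, with 39.4 and 41.1 CPM in DMSO and 20.8 and 21.3 CPM at 4 h. Without 4 h library B, it had a log2 fold change of -0.94 and an adjusted p of 0.155.

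Beyond these 20, the other falls were smaller. They include the fall with the highest DMSO signal, on chromosome 9 at 89561118 to 89561518, where 296 and 374 CPM in DMSO became 235 and 185 CPM at 4 h (-0.66, edgeR adjusted p = 0.0103). This region was picked out after its values had been seen, as were the next ones. Short pairs of falls stood on chromosome 1, at 26348602 and 26361959 (-0.64 and -0.68), and on chromosome 17, at 14204601 and 14212388 (-0.57 and -0.61). No fall was called among the 1121 measured regions of chromosomes 14, 18, 22, X and Y, where the share over all regions would give 5.46. These chromosomes were put together because none held a fall, so the contrast was fixed by that choice and is no test.

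**Figure D3:**
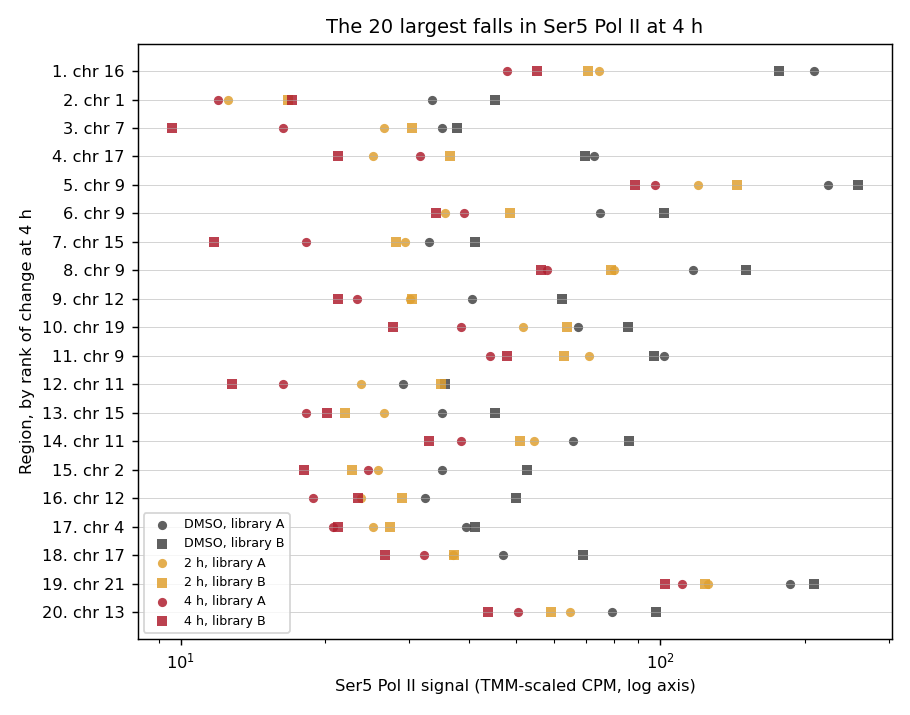
Signal in each of the 6 libraries is shown for the 20 largest falls, ordered by the change at 4 h and labelled by chromosome (TMM-scaled CPM, log axis). In each row both red points (4 h) lie to the left of both grey points (DMSO), and the orange points (2 h) mostly lie between them.

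Few falls had another measured region within 10 kb, as was true of the whole table. Of the 59, 11 (18.6%) had one, against 19.1% of all regions, and 2 of these 11 had one that also fell. Within 25 kb, 26 of the 59 (44.1%) had a measured region, against 39.1% of all regions, and 8 had one that fell. Within 100 kb of the 20 largest falls, 34 neighbouring regions were measured around 13 of them (a region near several falls counts for each). The other 7 had no measured neighbour at that distance. Of the 34, 4 fell and 0 rose, where 0.487% of all regions fell and 1.52% rose. The 4 are the named falls of chromosome 9, each counted as the neighbour of the other in its pair. The rises were more often beside one another, since 78 of the 184 (42.4%) had a measured region within 10 kb and 34 had one that also rose. When rises within 25 kb were joined, 51 of them lay in 22 stretches. Of these 51, 17 rises in 7 stretches belong to the group set apart below by its library ratios. The median log2 fold change of all neighbours within 10 kb was -0.22 around the falls, 0.47 around the rises and 0.08 over all regions. Neighbouring regions may share reads of the same gene and are not independent, and the difference between falls and rises was not tested.

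Several of the largest rises, though not all, had tight replicates. On chromosome 15 at 65588533 to 65588933 the signal was 126 and 122 CPM in DMSO and 369.9 and 371 CPM at 4 h, and at 65597070 to 65597470 it was 148 and 152 CPM against 369 and 375 CPM (log2 fold changes 1.58 and 1.31, edgeR adjusted p = 1.69e-09 and 8.37e-08). On chromosome 1 at 45196343 to 45196743 it was 115 and 122 CPM in DMSO and 308 and 319.6 CPM at 4 h (1.41, adjusted p = 1.59e-08). A region of chromosome 17 at 8076517 to 8076917 had 81.0 and 75.3 CPM in DMSO and 207 and 200.3 CPM at 4 h (1.38, adjusted p = 1.81e-08). In these 4 regions the difference between the groups was many times that between libraries of a group.

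Some large rises started from low signal. On chromosome 1, the region at 78469753 to 78470153 held 29.2 and 33.5 CPM in DMSO and 82.5 and 81.0 CPM at 4 h (log2 fold change 1.39, edgeR adjusted p = 1.01e-06), and the region at 210547086 to 210547486 held 32.9 and 23.3 CPM against 75.6 and 73.5 CPM (1.38, adjusted p = 4.46e-06). Others were strong to begin with. The region on chromosome 1 at 28975143 to 28975543 went from 281 and 337 CPM to 689 and 767 CPM (1.24, adjusted p = 1.89e-06), and that on chromosome 11 at 62608878 to 62609278 from 298 and 313 CPM to 663 and 694 CPM (1.15, adjusted p = 4.38e-06).

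Further rises of about 2-fold with groups that did not overlap were found at 120729385 of chromosome 12 (log2 fold change 1.17), 127420790 of chromosome 9 (1.14), 28889821 of chromosome 16 (1.12) and 17222518 and 11968404 of chromosome 1 (1.11 and 1.01). Others were 43011223 of chromosome 22 and 65266337 of chromosome 11 (both 1.03). Each kept its call in the alternatives run, as did 20 of the 28 largest rises wherever an adjusted p was given. In the 28 both 4 h libraries lay above both DMSO libraries, which was part of the rule that chose them and held for 20.2% of all regions.

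**Figure D4:**
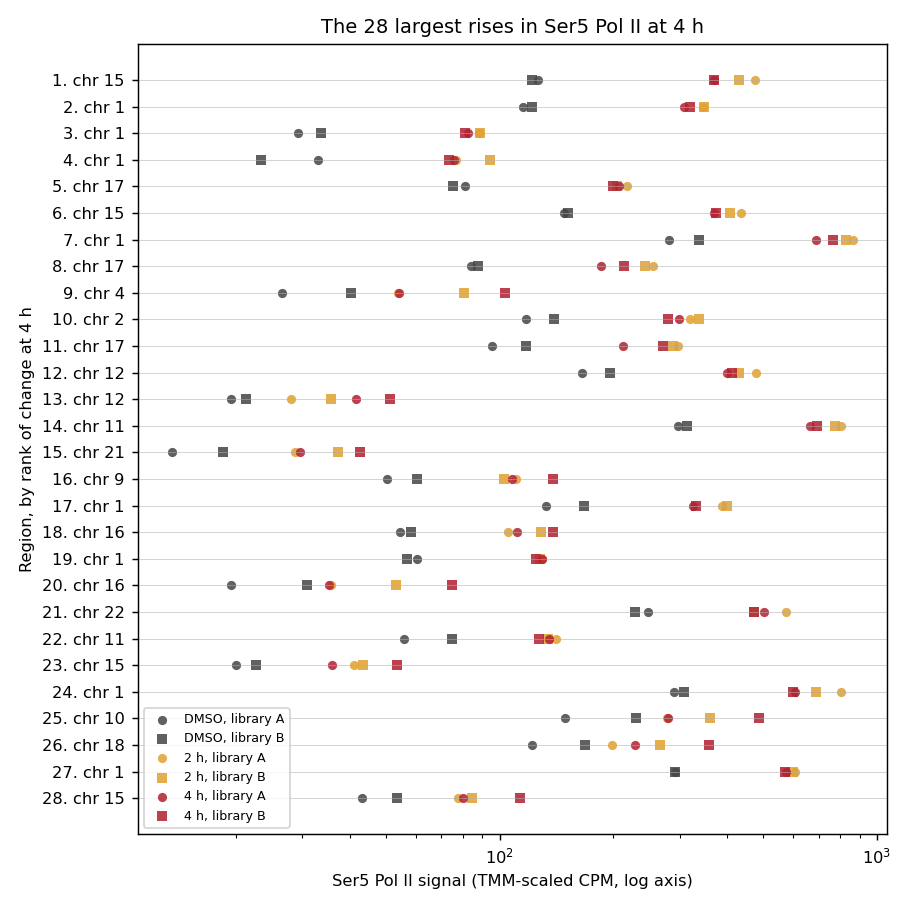
Signal in each of the 6 libraries is shown for the 28 largest rises, ordered by the change at 4 h and labelled by chromosome (TMM-scaled CPM, log axis). Red points (4 h) lie to the right of both grey points (DMSO) throughout, and in rows 9, 20, 25 and 26 the red square (4 h library B) stands far to the right of the red circle (4 h library A).

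Chromosome 6 held 32 of the 184 rises, or 5.02% of its 637 measured regions against 1.52% of all regions, and 15 of these lay in 2 stretches. In the first, from 26021344 to 26285756, 9 of the 17 measured regions rose, and all 17 had a log2 fold change above 0, with a median of 0.59. Its largest rise was at 26199004 to 26199404, from 50.2 and 60.9 CPM in DMSO to 101 and 105 CPM at 4 h (0.90, edgeR adjusted p = 0.000412). In the second, from 27792209 to 27861060, 6 of the 7 measured regions rose, with log2 fold changes from 0.50 to 0.73 over the 7. The rises there were of like size, and the seventh, at 27840977, missed the threshold with 0.50 (adjusted p = 0.0641).

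Regions measured just before the stretches had values near 0. Each stretch was drawn from its first to its last called rise, so these regions could not be called rises and do not mark it off. The region at 25992218, before the first stretch, had a log2 fold change of -0.02 (95% interval -0.35 to 0.32), and that at 27777756, before the second, 0.06 (-0.29 to 0.41). The human genes for replication-dependent histones, which package newly made DNA, are known to lie in clusters, the largest of them on chromosome 6. Whether these regions lie at such genes was not tested. The 17 other rises on the chromosome were spread from 27114650 to 139695506, and included pairs at 52000960 and 52016746 (0.80 and 0.75) and at 117586665 and 117596388 (0.70 and 0.83). None of the 32 rises was among those set apart by their library ratios in the next paragraph.

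A group of 31 rises went with the libraries as well as with the treatment. In these, library B was at least 1.3 times library A both in DMSO and at 4 h. Such ratios were found at 3.41% of all regions, at 2 of the 59 falls (1 of the 20 largest, at 209719978 of chromosome 1) and at 16.8% of the rises. On chromosome 18 at 18518823 to 18519223, the strongest of the 31, DMSO libraries A and B held 824 and 1374 CPM and the 4 h libraries 1534 and 2589.9 CPM (log2 fold change 0.91, edgeR adjusted p = 0.0129). On chromosome 10 at 42400164 to 42400564 they held 149 and 229.9 CPM and 279.8 and 487 CPM (1.01, adjusted p = 0.000603). Within each letter the rise was of like size, which the choice of called rises by both library ratios favours. A shared letter was not taken as pairing, so these ratios are a description. At the first region, 4 h was 1.86 times DMSO in library A and 1.88 times in library B, and at the second 1.88 and 2.12 times. Over the 31 regions, this ratio ran from 1.44 to 2.19 in library A and from 1.45 to 2.56 in library B.

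The region with the highest signal of all showed like library ratios. It lay on chromosome 1 at 121484944 to 121485344, held 9123 and 13333 CPM in DMSO and 13357 and 21899 CPM at 4 h, and was not called (log2 fold change 0.65, edgeR adjusted p = 0.303). With the share of the 3 strongest regions as a covariate, 0 of the 31 rises stayed called, against 101 of the other 153. Without 4 h library B, 1 of the 31 and 87 of the 153 stayed called, and without 4 h library A all 31 and 99 of the 153. The 31 were chosen by the same library ratios, so this contrast is a description. The 3 regions behind the covariate were themselves higher in library B and at 4 h, with log2 fold changes from 0.65 to 0.73. A fit with this covariate therefore lowers rises of that kind by construction, and takes out part of the difference between treatments. Groups overlapped at 6 of the 31, and at none of the other called regions. Of the 31, 5 lay on chromosome 10 between 42387104 and 42529790, and others lay in pairs on chromosome 16 at 33974180 and 33975458 and at 46389593 and 46391153. Whether repeats in the genome or background reads have a part in these rises was not tested.

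**Figure D5:**
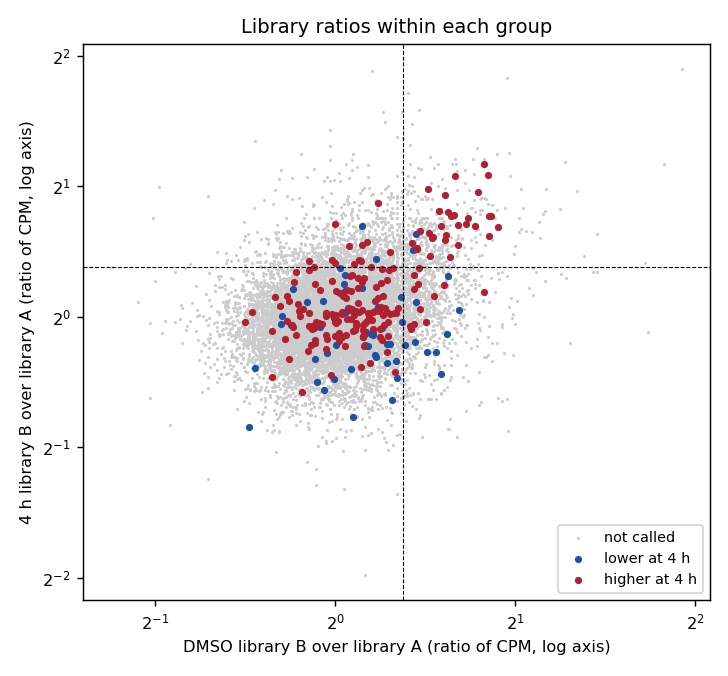
The ratio of library B to library A at 4 h is plotted against the same ratio in DMSO for each region (both log axes), with called falls in blue and called rises in red and dashed lines at a ratio of 1.3. The upper right corner holds 31 of the 184 red points and 2 of the 59 blue points.

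Of the 5 named rises in this group, on chromosomes 4, 10, 16, 18 and 21, each lost its call with the covariate, and each kept it without 4 h library A. The largest drop was at 33975458 on chromosome 16, with a log2 fold change of 1.06 in the test and 0.18 with the covariate (edgeR adjusted p = 0.863). Its libraries held 19.4 and 30.8 CPM in DMSO and 35.3 and 74.6 CPM at 4 h. On chromosome 4 at 190842379 the log2 fold change went from 1.18 to 0.40 (adjusted p = 0.494). The other 3 named rises that lost a call lay on chromosome 12 at 9436017 and chromosome 15 at 45076270 and 35081441, with 1.16, 1.02 and 0.97 in the test. With the covariate these had 0.92, 0.66 and 0.61 (adjusted p = 0.0733, 0.288 and 0.0964).

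Leaving out regions whose library B was at least 1.3 times library A in either group, the 20 regions with the highest DMSO signal, from 549.9 to 2124 CPM, held 0 calls in either direction, where 2% of all regions were called. Their log2 fold changes ran from -0.39 to 0.37, and their 95% intervals reached from -0.71 to 0.72 at the widest, so changes of 2-fold lie outside each of them. The strongest, on chromosome 12 at 58139214 to 58139614, had 2145 and 2103 CPM in DMSO and 2151 and 2296 CPM at 4 h (0.07, 95% interval -0.33 to 0.46). Of the 20, 15 lay on chromosome 12, all between 57623592 and 58335684. The lack of calls therefore rests mostly on a single block of neighbouring regions. The lowest value belonged to a region of chromosome 11 at 17745831 to 17746231, with 527 and 617 CPM in DMSO and 426 and 446 CPM at 4 h. Its log2 fold change of -0.39 had an interval of -0.71 to -0.07 but an adjusted p of 0.243 in edgeR. The highest value, 0.37 (0.02 to 0.72, adjusted p = 0.340), belonged to a region of chromosome 12 at 57914019 to 57914419, with 894 and 851 CPM in DMSO and 1189 and 1064 CPM at 4 h. That region was called higher at 2 h (0.61, edgeR adjusted p = 0.0394).

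The 2 h values were read beside those at 4 h. They come from comparisons that share the DMSO libraries, so that signs in common are not independent. Of the 59 falls at 4 h, 19 were also called at 2 h, where 0.396% of all regions fell, and the 40 others had 2 h log2 fold changes from -0.82 to -0.09. Of the 184 rises, 128 were called at 2 h, where 2.22% of all regions rose, and the 56 others had 2 h values from 0.17 to 0.84. Among the 20 largest falls at 4 h, 8 were called at 2 h, and among the 28 largest rises 26.

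At 16 of the 20 largest falls both 4 h libraries lay below both 2 h libraries, a much larger share than the 16.4% of all regions. Wide gaps were seen on chromosome 7 at 138666190, where the 2 h libraries held 26.5 and 30.4 CPM and the 4 h libraries 16.4 and 9.59 CPM, and on chromosome 15 at 59730363, with 29.3 and 28.1 CPM against 18.3 and 11.7 CPM. These regions were chosen for their 4 h values, which favours such an order. When 4 h was tested directly against 2 h with edgeR, 0 regions passed and the lowest adjusted p was 0.998. Without adjustment, 251 regions had a lower and 145 a higher signal at 4 h at p under 0.05.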

How the data were processed

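Ser5 Pol II was measured by ChIP-seq in 6 libraries, 2 per group (DMSO, dTAG47 for 2 h, dTAG47 for 4 h). Whole-number counts, not normalized, were deposited for 12123 regions, with values from 3 to 22091. The regions span 400 bases from start to end and lie on 24 chromosomes of hg19. Per the submitters' processing notes, the tools were Bowtie2, MACS2, DESeq2, DiffBind and Trimmomatic 0.32, with the builds hg19 and dm3. Their roles, the calling of regions and the handling of duplicates or input are not stated there. Columns were tied to groups by name, and their letters A and B to no replicate number.

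A quasi-likelihood model in edgeR 4.0.16 (R 4.3.3) was fitted to the counts of all 6 libraries together after TMM scaling (biological coefficient of variation 8.05%). No region was lost to filterByExpr. A region was called at a Benjamini-Hochberg adjusted p under 0.05, adjusted over the whole table. Standard errors are the log2 fold change over the square root of F. The test was tried on simulated data.

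Named were the 20 largest falls and 28 largest rises among the calls, given 20 or more counts on average and groups that did not overlap. The rule had divided the rises by coding and noncoding genes. That division, gene lists, motifs and sequences were planned and not run, since no hg19 annotation or genome was used here. The comparison, rule and lists were chosen with earlier results of these data known. The ratio of 1.3, the joining of calls, the 20 strong regions and the neighbour counts were chosen after the values had been seen. Alternatives were other scalings, tests (DESeq2 1.42.0), fits, filters, thresholds and libraries left out.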

Additional observations from a re-analysis of the deposited data

How the results depend on the processing

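The count of falls was 59 and that of rises 184. Total count scaling gave 120 rises, DESeq2 4 falls and 52 rises (with no adjusted p for 7286 regions), a replicate block by column letter 203 falls and 540 rises, the share of the 3 highest regions as a covariate 109 falls, and an adjusted p under 0.01 left 18 falls and 83 rises. With 1 library left out the falls ran from 27 to 71 and the rises from 89 to 314. An arm left with 1 library is assumed to vary like the others. The cause of these shifts was not tested. Median of ratios scaling, a fit of 2 groups and a mean of at least 50 counts kept both counts within 1.5 times. A filter removed 0 regions, so its omission tested nothing. Deviations of same-letter libraries correlated with r of 0.22 between DMSO and 2 h, 0.28 between DMSO and 4 h and 0.16 between 2 h and 4 h. No label ties a letter to a culture or day and each group has 2 letters, so this was not taken as pairing. The block kept all 59 falls and all 184 rises, the 31 with high ratios of library B to A included. The named falls kept their call in 232 of 256 alternative values and the named rises in 362 of 382, and 0 changed sign. Alternatives that gave a region no adjusted p are left out of these totals. The fit without the filter is counted in them, although it repeated the main fit and so kept each call by construction. DESeq2 gave none at most of the named falls, and its 4 falls were all among them. The alternatives by tie to a gene were not run.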
